A study of Asparagus officinalis with 3 samples.

Results

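The miR535 family and the candidate aof-miRn29 were examined as the products of a single hairpin in garden asparagus (Asparagus officinalis), a species with separate male and female plants. The members were the rows that the deposited miRNA table assigns to family miR535, aof-miR535a and aof-miR535b, together with aof-miRn29, a row without a family whose sequence lies in the opposite arm of the same precursor. These are 3 of the 194 listed miRNAs. The female library and the male library were each made from RNA of leaves, roots, stems and flowers of greenhouse plants aged 3 years, pooled over plants and organs, so a difference between organs or between plants of a sex cannot be seen in them. Each sex was represented by 1 library. A degradome library, made to find cut mRNA ends, came from a pool of both sexes and its reads were not analysed here.

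A plant miRNA is cut by a Dicer-like enzyme out of a folded precursor RNA as a short duplex whose strands overhang each other at their 3′ ends. In most hairpins a single strand, the guide, is loaded into an Argonaute protein and directs the cleavage of mRNAs to which it pairs, and the opposite strand is mostly degraded. miR535 is found in many land plants and is related in sequence to miR156 and miR529. In rice and in the moss Physcomitrella, miR535 has been linked to SPL genes, which encode the squamosa promoter-binding-like transcription factors that miR156 regulates during phase change and flowering.

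The mature sequences are given first, since the relation between the members can be read from them. Capitals mark the seed, bases 2 to 8 from the 5′ end.
aof-miR535b: uGACAACGagagagagcacgc
aof-miR535a: gACAACGAgagagagcacgc
aof-miRn29: gUGCUUCCccucguugucacc
aof-miR535b and aof-miRn29 are 21 nt long. aof-miR535a, of 20 nt, is aof-miR535b without its first U, so its seed is moved by 1 base. Of the 194 listed miRNAs, 125 begin with U, as aof-miR535b does, and 22 begin with G, as aof-miR535a and aof-miRn29 do. None of the 3 seeds was shared with another listed miRNA.

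The precursor is shown because it places all members in a single RNA. It is the longest of the 3 listed precursors from unigene UN05913, an assembled asparagus transcript, with aof-miR535b and aof-miRn29 in capitals.
UN05913: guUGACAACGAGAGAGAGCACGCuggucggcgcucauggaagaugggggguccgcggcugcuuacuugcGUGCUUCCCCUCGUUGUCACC
In these 90 nt, aof-miR535b runs from position 3 to 23, and aof-miRn29 occupies the last 21 bases, from 70 to 90, with 46 nt between them. No further listed miRNA was found in the UN05913 precursors. The place of UN05913 in the asparagus genome was not analysed here.

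Folded with RNAfold, the precursor formed a single hairpin with a minimum energy of -43.1 kcal/mol, a GC content of 62.2% and 32 base pairs, 17 of them between aof-miR535b and aof-miRn29. Of the other 15, 2 joined the last 2 bases of aof-miR535b to bases just before aof-miRn29, and 13 lay between them and the terminal loop. Laid against each other, the mature strands leave 2 unpaired bases at each 3′ end, the overhang that Dicer-like cleavage produces. Capitals mark these overhangs and the mismatched bases.
aof-miR535b: ugacaacgagAgAgagcacGC
aof-miRn29: gugcuuCcCcucguugucaCC
Of the 19 facing positions, 16 were Watson-Crick pairs, 1 was a G:U pair and 2 were mismatches. The mismatches lay at bases 11 and 13 of aof-miR535b, near the middle of the duplex, and the G:U pair at base 14. The 10 bases from the 5′ end of aof-miR535b were paired without a break, and its seed is therefore fully covered by the 3′ part of aof-miRn29. The arcs along the precursor show the stem closed by an unbroken run of pairs at its base.

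**Figure D1:**
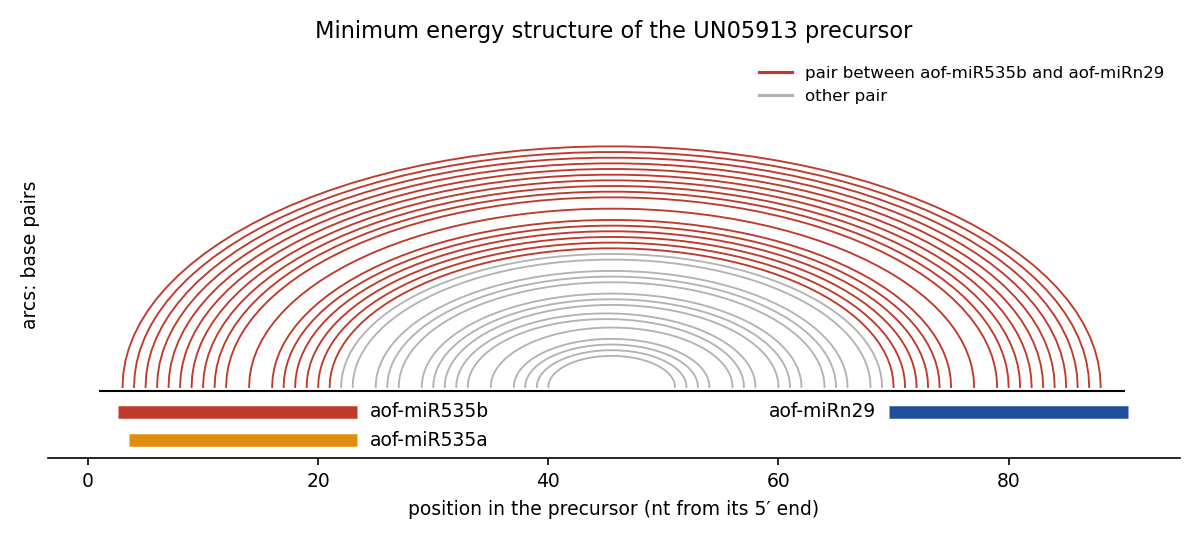
Base pairs of the minimum energy structure along the 90-nt precursor (x axis, nt from its 5′ end), with an arc for each pair and bars for the members. The 17 red arcs join aof-miR535b at positions 3 to 23 with aof-miRn29 at positions 70 to 90, and aof-miR535a starts 1 nt after aof-miR535b.

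The deposited values are RPM, the reads of a sequence scaled to a fixed total for its library. They rise in even steps of 0.229 RPM (female) and 0.157 RPM (male), which 99.4% of the values up to 60 RPM followed in each. Where a step is taken as a read, a value can be given a 95% Poisson interval, which covers counting error only. The library totals implied in this way are somewhat higher than the final clean reads given in the paper, so this reading of a step is an assumption. Over the list the log2 of female over male had a median of 0.18. More than 2-fold between the libraries lay 60 miRNAs (30.9%), 35 with the higher value in the female and 25 (12.9%) with the higher value in the male library. With 1 library for each sex no test against the spread between plants was possible, and none of the differences below has a replicate check. The paper compared the same libraries by Fisher's exact and chi-square tests. It lists aof-miRn29, but neither aof-miR535a nor aof-miR535b, as differentially expressed, and describes aof-miRn29 as expressed in male plants only.

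aof-miR535b, the main strand, had 2583 RPM in the female library (counting interval 2536 to 2632) and 3053 RPM in the male library (3010 to 3096). It was the fourth most abundant miRNA in the female library and the fifth in the male, with 4.55% and 6.0% of the summed values of the list. The male value was 1.18 times the female value, a log2 ratio of female to male of -0.24, and the counting intervals did not overlap. Set against the median ratio of the list, the log2 ratio was -0.42. aof-miR535b was thus not among the miRNAs over 2-fold apart.

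aof-miR535a, the form without the first U, had 36.4 RPM in the female library (30.9 to 42.5) and 31.5 RPM in the male library (27.3 to 36.2). Its log2 ratio of 0.21 has the opposite sign to that of aof-miR535b, but its counting intervals overlapped, and its distance from the median ratio of the list was 0.03. It ranked 49th in the female and 53rd in the male library.

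aof-miRn29, the strand from the opposite arm, was listed at 0 in the female library and had 10.04 RPM in the male library (7.73 to 12.8). In steps this is 0 against 64. For the count of 0 a limit of 3 reads was set in place of the interval used for the other values. This is 0.686 RPM in the female library, which is below the lower bound in the male library. Because aof-miRn29 entered the list through its male value alone, a higher male value was favoured in advance. Of the 3 members it was the only one over 2-fold apart, and 12.9% of all listed miRNAs were over 2-fold higher in the male library. In the plot of the members, its female bar is empty.

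**Figure D2:**
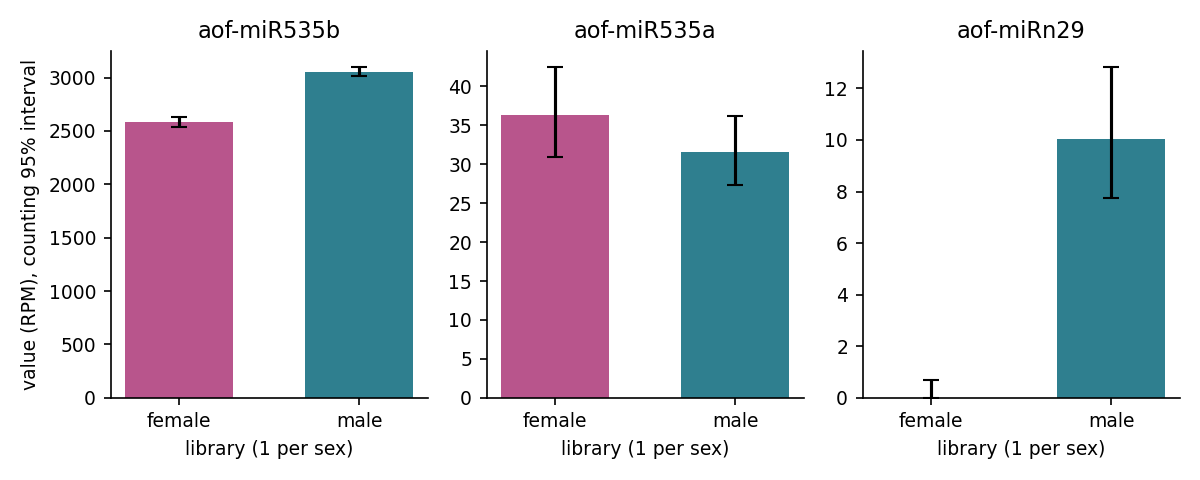
Values of the members (y axes, RPM, each from 0 on its own scale) in the female and the male library. Bars are the single deposited values and whiskers 95% Poisson intervals for counting error. Where the value is 0, a set limit of 3 reads, 0.686 RPM, replaces the interval. aof-miR535b had 2583 and 3053 RPM, aof-miR535a 36.4 and 31.5 RPM, and aof-miRn29 0 and 10.04 RPM.

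Summed over aof-miR535a and aof-miR535b, the family held 2619.8 RPM (female) and 3085 RPM (male), the third of 26 families in both. The log2 ratio of the sums was -0.24. The sums follow aof-miR535b, which supplies nearly all of the signal. aof-miR535a made up 1.39% of the family in the female library (exact Clopper-Pearson 95% interval 1.18 to 1.62%) and 1.02% in the male library (0.886 to 1.17%), intervals that did not overlap by a narrow margin.

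To place this difference, all listed miRNAs were searched for forms 1 nt shorter at the 5′ end whose longer form had at least 100 RPM in one library and at least 10 times the value of the shorter form in both. This search was chosen after the values had been seen. It found 13 pairs, and in all 13 the shorter form had the larger share in the female library. aof-miR535a had 1.41% (female) and 1.03% (male) of the value of aof-miR535b, a quotient of 1.36. Over the other 12 pairs that quotient ran from 1.08 to 2.05 with a median of 1.37, so the miR535 pair lay at the middle of them, and 4 of the pairs belonged to the miR166 family. The shorter forms had a median share of 1.01% (female) and 0.716% (male) over these 12 pairs. The shorter forms aof-miR390c (5.94 RPM female, 1.57 RPM male) and aof-miR168d (5.26 and 2.04 RPM) reached 5 RPM in the female library alone. aof-miR166f-5 (3.2 and 5.8 RPM) reached it in the male library alone. No counting interval was computed for the quotients, and each rests on 1 library for each sex. The larger female share of forms lacking the first base is thus a description of these pairs. Its part in the sign of the aof-miR535a ratio was not tested.

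**Figure D3:**
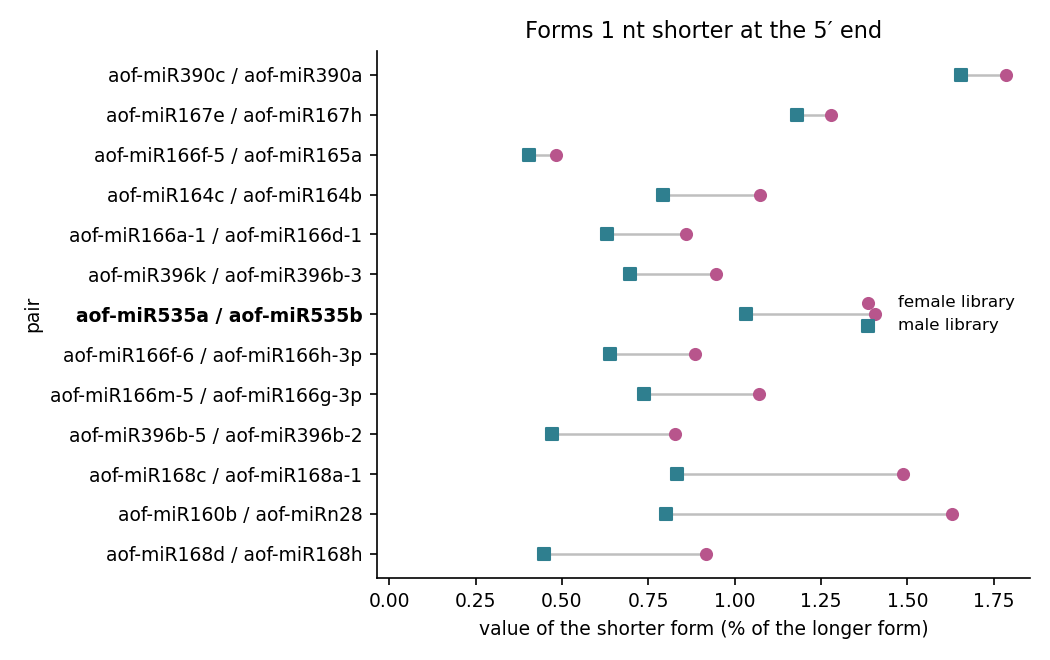
Value of each form 1 nt shorter at the 5′ end as a percentage of its longer form (x axis) in the female library (circles) and the male library (squares), for the 13 pairs (y axis), ordered by the quotient of the percentages. Every circle lies to the right of its square, and the miR535 pair, with 1.41% and 1.03%, is the seventh of 13.

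The miR535 family was otherwise poor in variants. aof-miR535b was the only miRNA among the 10 with more than 1000 RPM in one library for which no single-substitution variant was listed, whereas aof-miR166d-1 had 32, aof-miR396b-2 had 3 and aof-miR396b-3 had 1. No form shortened or lengthened at the 3′ end was listed for it either, while 8 of the other 9 had a 3′-shortened form. The 5 RPM needed for listing correspond to 0.0187% of the female and 0.0236% of the male value of aof-miR166d-1, so its variants could be listed at lower shares. For aof-miR535b they correspond to 0.194% of the female and 0.164% of the male value. Conserved miRNAs entered the table through similarity to known mature sequences, and whether other forms of miR535 occurred below that limit or without a match cannot be seen in the table.

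aof-miRn29 was the only miRNA listed at 0 in either library. The next lowest values were 0.23 RPM for aof-miR156a in the female library, which is 1 step, and 0.63 RPM for aof-miR166e-2 in the male library, which is 4 steps. aof-miRn29 passed the limit of 5 RPM through the male library alone, as did 24 miRNAs in all, and 28 passed through the female library alone. A sequence that enters a list this way has to differ between the libraries to some degree.

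The 5 miRNAs nearest to aof-miRn29 in the male library were aof-miR168a-3, aof-miRn32, aof-miR477i, aof-miRn12 and aof-miR166a-4, with 9.73 to 10.4 RPM. In the female library they had 6.63 RPM (aof-miR168a-3), 7.77 RPM (aof-miRn32), 8.23 RPM (aof-miR477i), 14.9 RPM (aof-miRn12) and 7.09 RPM (aof-miR166a-4). Over all 26 miRNAs within 2 RPM of its male value, the female values ran from 1.14 to 48.7 RPM with a median of 8.46 RPM. aof-miRn29 thus stood apart at the low end of the female values of miRNAs with its male abundance, as the plot of all listed miRNAs shows.

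**Figure D4:**
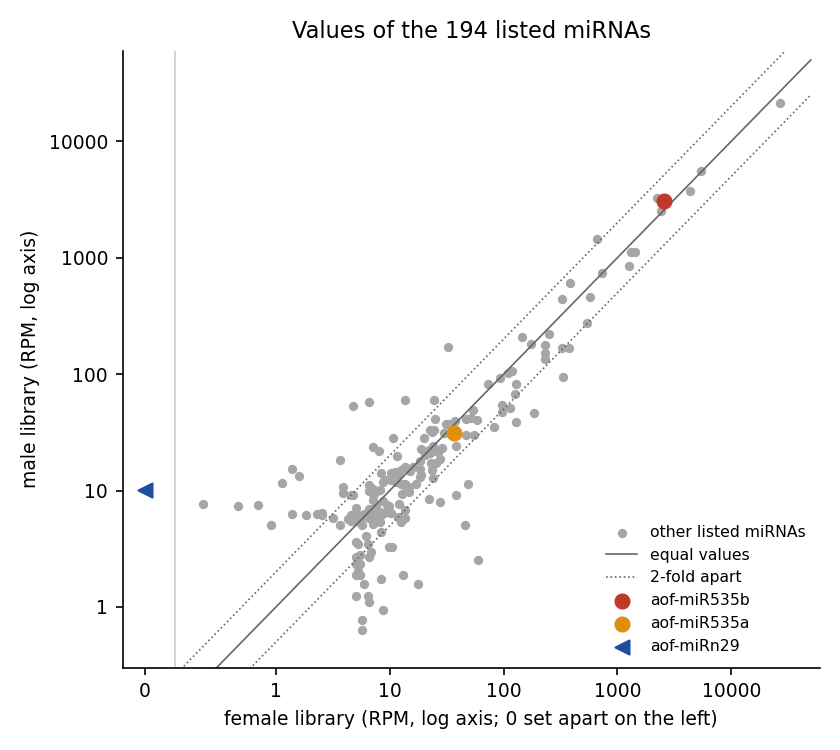
Value of each of the 194 listed miRNAs in the female (x axis, RPM) and the male library (y axis, RPM), both on log axes with the single female value of 0 set apart on the left. Dotted lines mark 2-fold differences. aof-miR535b and aof-miR535a lie between them, and aof-miRn29, at 0 and 10.04 RPM, is the only point left of the grey line.

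Nearest to aof-miR535b by the distance between pairs of log2 values were aof-miR396b-2 with 2214 and 3262 RPM and aof-miR396b-3 with 2437 and 2502 RPM in the female and male library. The third, aof-miR166h-3p, had 4316 and 3755 RPM and lay at a distance of 0.80, against 0.24 and 0.30 for the first pair. For aof-miR535a the nearest were aof-miR6478b (33.6 and 37.5 RPM), aof-miR159a-1 (29.9 and 31.1 RPM) and aof-miR166l-6 (37.3 and 39.4 RPM). These miRNAs have similar levels in 2 libraries and nothing more can be read from them.

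The value of the opposite arm can be set against that of the main arm within each library. aof-miRn29 had 0.329% of the value of aof-miR535b in the male library (counting interval 0.253 to 0.420%, from the reads of aof-miRn29 alone). In the female library the limit of 3 reads corresponds to 0.0266% of aof-miR535b. With the male percentage, the female value of aof-miR535b would go with 8.50 RPM of aof-miRn29, or 37.2 steps. Where a step is taken as a read, the female library thus held less aof-miRn29 for its aof-miR535b, by more than counting error. Because aof-miRn29 was listed through its male value alone, a lower female share was favoured in advance. Without replicate libraries, whether this share differs between the sexes could not be tested.

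Listed sequences in both arms were found in 4 other hairpins among the listed precursors. aof-miR396b-1 had 0.775% of aof-miR396b-2 in the female and 0.351% in the male library, close to the male percentage of aof-miRn29. aof-miR166d-7 had 0.867 and 0.710% of aof-miR166d-1, and aof-miRn33 had 1.88 and 0.779% of aof-miRn28, a candidate that overlaps miR160. aof-miR156c had 11.03 and 6.98% of aof-miR156j, the largest shares of the 5 hairpins. In all 4 the lower arm had the higher value in the female library, the direction opposite to that of aof-miRn29. This was also the more common direction over the list, with 112 of 194 miRNAs higher in the female library. The precursors of aof-miR156c, aof-miR166d-7 and aof-miR396b-1 come from the rice genome, and only those of aof-miRn29 and aof-miRn33 from asparagus unigenes.

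**Figure D5:**
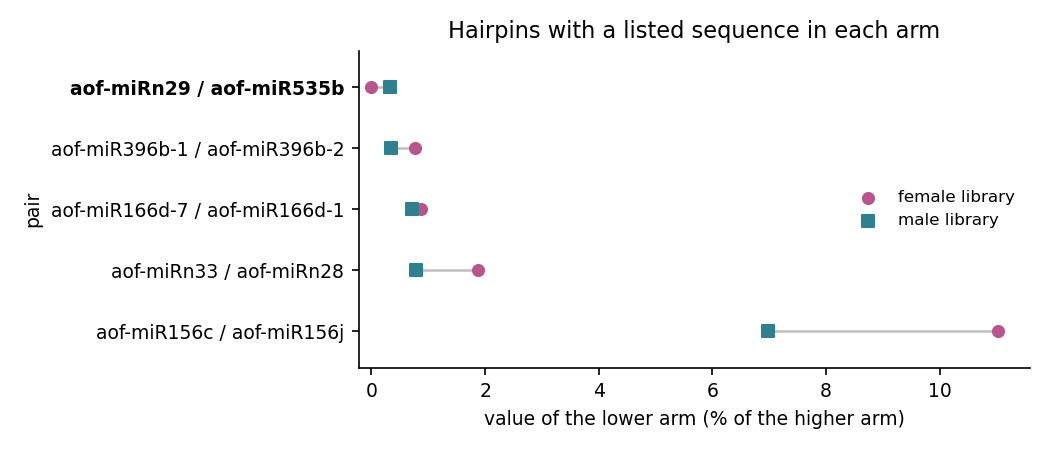
Value of the lower arm as a percentage of the higher arm (x axis) in the female library (circles) and the male library (squares) for the 5 hairpins with a listed sequence in each arm (y axis). For aof-miRn29 over aof-miR535b the female value is 0 and the male value 0.329%, and in the other 4 hairpins the female percentage is the larger.

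Pairing between listed sequences gave a further example with the direction of aof-miRn29, chosen after the values had been seen. The search allowed up to 2 mismatches and found 14 pairs, that of aof-miRn29 with aof-miR535b among them. The less abundant strand had its larger value in the female library in 11 pairs and in the male library in 3. Over the whole list of 194, 112 miRNAs were higher in the female and 82 in the male library. Over 2-fold apart were 6 of these strands with the larger female value. Among these, aof-miR160c (5.72 RPM female, 0.78 RPM male), aof-miR166a-2 (6.4 and 1.25 RPM), aof-miR166d-6 (6.63 and 1.1 RPM) and aof-miR168e (13.03 and 1.88 RPM) reached 5 RPM in the female library alone. The pairs are not all separate hairpin arms, since aof-miR166d-5 was the less abundant strand beside aof-miR166d-7 and the more abundant strand beside aof-miR166a-2. Only 2, aof-miRn29 and aof-miR168f, were over 2-fold apart with the larger male value. aof-miR168f faces aof-miR168h with 2-nt 3′ overhangs and 1 mismatch, although no precursor was used to place them. It had 1.14 RPM in the female and 11.6 RPM in the male library, or 0.199 and 2.54% of aof-miR168h. Like aof-miRn29, it reached the limit of 5 RPM through the male library alone, so its difference is in part set by the listing.

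The closest listed relatives of aof-miR535b in sequence were the 4 miR156 and miR157 strands of the main arm. aof-miR156k differed from it by 4 single-base edits, aof-miR156j by 5, and aof-miR156a and aof-miR157a by 6 each, while every miRNA outside these families differed by at least 9. aof-miR535b and aof-miR156k share a run of 12 bases, in capitals below, which starts at base 8 of aof-miR535b and base 9 of aof-miR156k.
aof-miR535b: ugacaacGAGAGAGAGCACgc
aof-miR156k: ugacagaaGAGAGAGAGCAC
Both also begin with the same 5 bases. They differ between these parts, where aof-miR156k has 1 base more, and at the 3′ end, where aof-miR535b has 2 bases more. The repeat GAGAGAGAG was found in 3 listed miRNAs, aof-miR535a, aof-miR535b and aof-miR156k, read on the strand of the miRNA.

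The relatives were far less abundant than aof-miR535b and differed in direction between the libraries. Summed over the 6 listed sequences, miR156 and miR157 held 192 RPM in the female and 139 RPM in the male library. aof-miR156k had 59.2 RPM in the female and 2.51 RPM in the male library, a log2 ratio of 4.56, while aof-miR156j had 93.3 and 92.1 RPM. The paper names aof-miR156k as the exception in its quantitative PCR check, where the female excess was far smaller than by sequencing. aof-miR156a had 0.23 and 7.69 RPM, and aof-miR157a had 19.0 and 22.9 RPM. The opposite-arm sequences aof-miR156e, with 9.83 and 7.37 RPM, and aof-miR156c, with 10.3 and 6.43 RPM, were higher in the female library. The log2 ratio of -0.24 of aof-miR535b lay closest to the -0.27 of aof-miR157a among these.

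The deposited target table pairs the miRNAs with asparagus unigenes. Each alignment has a score that adds 1 for a mismatch, 0.5 for a G:U pair and 2 for an unpaired base, so that a low score stands for close pairing. Of its 463 alignments, which belong to 130 of the 194 miRNAs, a single one belonged to the members. It joined aof-miR535a to UN14075, whose best protein match was a putative ATP/GTP binding protein of pineapple (Ananas comosus). The site is printed with aof-miR535a because it is the only listed target of the hairpin, and capitals mark the bases that are mismatched or in G:U pairs.
aof-miR535a: gaCaacgaGagagagcacGC
UN14075 site: CUgugcucucuUucguuCuc
The site spans positions 89 to 70 of the unigene on its minus strand. It held 16 Watson-Crick pairs, mismatches at bases 3 and 20 of aof-miR535a and G:U pairs at bases 9 and 19. Bases 10 and 11, between which plant miRNAs direct cleavage, were paired.

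The score of this alignment was 3, the highest in the table, given to 185 alignments in all (39.96%). A mismatch within bases 2 to 8, as at base 3 here, was present in 130 of the 382 alignments without unpaired bases (34.0%), and 191 of the 463 alignments lay on the minus strand. No other listed miRNA was aligned to UN14075. None of these features sets the alignment apart from the rest of the table, and no cleavage at the site was measured in the values used here.

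aof-miR535b and aof-miRn29 had no alignment in the table and were 2 of the 64 listed miRNAs without one. Among the 10 miRNAs with more than 1000 RPM in one library, 6 had at least 1 alignment. Bases 2 to 21 of aof-miR535b are those of aof-miR535a and pair with the UN14075 site in the same way, but the unigene base that would face its first U is not printed in the table. A target listed for the shorter form and none for the longer was also seen for aof-miR164c beside aof-miR164b, aof-miR166m-5 beside aof-miR166g-3p and aof-miR167e beside aof-miR167h, which makes 4 of the 13 pairs. The table held no alignment with a score of 0, its lowest score being 0.5. aof-miR156k pairs at all 20 bases with the printed sites of 2 SPL unigenes, UN01411 and UN07692, and was not listed for them. A site fully complementary to aof-miR535b or aof-miRn29 may thus be left out in the same way.

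The 3 SPL unigenes of the table were listed for miR156 and miR157 strands alone, in 9 alignments. Because of the shared run, the members were scored on these printed sites by the same scheme, allowing unpaired bases. On UN01411, annotated as SPL14-like, and on UN07692, annotated as SPL12-like, aof-miR535b reached a score of 3 over the 19 of its bases that the printed site covers, with 18 pairs, 1 mismatch and 1 unpaired base of the unigene. On UN02447, annotated as SPL12, it reached 4, with 17 pairs and 2 mismatches. Without unpaired bases its score on the SPL sites was 8 or more, and no site of the 128 unigenes with a printed stretch as long as the miRNA scored lower. aof-miR156k had 0 on UN01411 and UN07692 and 1 on UN02447.

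aof-miR535a reached the same scores as aof-miR535b on these sites, 3, 3 and 4, over 18 of its bases. The last 2 bases of both lie beyond the printed sites and were not scored, so the full scores may be higher, and the limit of 3 that the listed alignments keep may be passed. aof-miRn29, whose sequence runs in the opposite sense, scored 13 to 14 on the SPL sites and thus did not pair with them. These scores describe complementarity only.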

How the data were processed

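Small RNA libraries were made from pooled organs of male and female plants, 1 for each sex, and sequenced on an Illumina HiSeq. The authors removed adapters, short and low-quality reads and structural RNAs, kept unique sequences of 20 to 24 nt with at least 5 RPM in one library, and identified miRNAs by matches to known mature sequences or by hairpins in asparagus unigenes or the rice genome. The deposited values are RPM (named TPM by the authors) and are not divided by length. The deposited score of the target table belongs to alignments of miRNAs to unigenes. Its program is not given in the table. Scores recomputed from the printed alignments were equal to the deposited ones. Precursor sequences were read from the study's supplementary table, and no values were taken from it.

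Ratios were computed without a pseudocount. The step between values was searched with values up to 60 RPM and a tolerance of 0.0051 RPM. Too few low values were present to rebuild reads for a count test, and with 1 library for each sex no p-value was computed. Folding used RNAfold and RNAduplex 2.7.2, and other work Python 3.11.15, matplotlib 3.10.9, scipy 1.17.1 and numpy 2.4.6. The step search and the 2-fold count were tested on simulated data, and the other calculations were not. The miRNAs named were the members, their hairpin and sequence relatives, their nearest neighbours in level, hairpins with both arms listed and the members' targets. Members and lists were chosen with earlier results of these data known. Alternatives were pseudocounts of 1 and 5 RPM, a minimum of 10 RPM in one library, a 3-fold threshold, rescaling by the median ratio or the summed values, other precursors and structures, and a stricter score.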

Additional observations from a re-analysis of the deposited data

How the results depend on the processing

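Rescaling moved the log2 ratio of the abundant strand by more than counting error and kept its direction. Rescaled by the median ratio of the list, it was -0.42 for aof-miR535b and -0.41 for the family sum, and rescaled by the summed values -0.40 and -0.39. Pseudocounts of 1 or 5 RPM, and aof-miRn29 added to the family sum, left it at -0.24. For aof-miR535a the ratio ran from 0.03 to 0.21 over all settings. No ratio exists for aof-miRn29 as deposited, and with pseudocounts of 1 and 5 RPM the log2 value was -3.46 and -1.59, which depends on the pseudocount and is no bound. The number of miRNAs over 2-fold apart fell to 34 with at least 10 RPM in one library, where 124 were left, to 32 with a pseudocount of 5 RPM and to 35 with a 3-fold threshold. Those higher in the male library fell to 15 with at least 10 RPM in one library and to 16 with a 3-fold threshold. The pairing of aof-miR535b with aof-miRn29 stayed at 17 base pairs, or 16 in the precursor listed for aof-miR535a. With scores limited to the median of 2.5, the number of alignments of aof-miR535a fell to 0. All 9 pairs with a longer form of at least 1000 RPM in one library, and all 14 with a longer form at least 5 times the shorter one, had the larger share of the shorter form in the female library. These settings were chosen after the values had been seen. No paired analysis was possible because each sex had 1 library. Depth limits aof-miRn29 most, since 10.04 RPM stands for 64 steps.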
